A study of Mus musculus with 15 samples.

Results

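The 34 genes described here are markers of B cells, read out in RNA of sorted regulatory T cells (Tregs), the Foxp3-expressing T cells that restrain immune responses. They were chosen as a list of named B cell genes that covers the B cell receptor and its kinases and adaptors, other surface proteins, transcription regulators and other intracellular proteins, and that includes genes of follicular, marginal zone and B-1 cells. All 34 were found by symbol among the 45706 genes of the count table, and all 34 passed the filter on low counts, with 18423 genes tested. The 15 libraries came from Foxp3+ cells sorted from adult mice with a Foxp3 reporter on the C57BL/6 background. Control libraries came from littermates, 3 from spleen, 3 from thymus and 2 from the peritoneal cavity. Libraries of the line named RelB-dDC (dDC here) were 3 from spleen, 2 from thymus and 2 from the peritoneal cavity. The name is read here as loss of RelB, an NF-kappaB subunit, in dendritic cells; the labels name no Cre driver, and the genotype was not checked with these counts. The labels do not say whether libraries of a group came from separate animals, so p-values measure only the spread between these libraries, which may be technical.

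B cells recognise antigen through a membrane immunoglobulin paired with the signalling chains Cd79a and Cd79b, which pass the signal to the kinases Lyn, Blk, Syk and Btk and the adaptor Blnk. Pax5 and Ebf1 set and keep B cell identity. Follicular and marginal zone B cells fill the spleen, B-1 cells are abundant in the peritoneal cavity, and the thymus holds few B cells. In a bulk library, fewer cells of a type and less RNA per cell cannot be told apart, and some of these genes are also transcribed in T cells.

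Promoters of 28 of the 34 genes were in the RefSeq table of windows from 250 bases before to 50 after the start, in build GRCm38.p6, the assembly also called mm10. Each window was searched on both strands for 4 motifs, none of which contains another. The octamer ATGCAAAT, where the co-activator Pou2af1 acts with Oct proteins, was in the windows of Blnk and Vpreb3 and in 1.74% of all 32851 windows. The Ets-type site GAGGAAGT, of the kind bound by PU.1 and Spi-B, was in those of Cd72 and Fcrl1 (3.2% of all windows). The EBF1-type palindrome TCCCNNGGGA was in that of Cd22 (0.904%), and the E-box CACGTG, of the kind that basic helix-loop-helix proteins such as Bhlhe41 bind, was in that of Bhlhe41 (7.15%). The following 4 upstream stretches, with the motif in capitals, belong to genes with contrasting tissue patterns. Bhlhe41 was highest in peritoneal libraries, Cd72 and Fcrl1 had reads in every thymus library, and Vpreb3 was near 0 in several thymus libraries. A match is a description of the letters and not a site shown to be used.
Bhlhe41, chr6:145865559-145865670, minus strand: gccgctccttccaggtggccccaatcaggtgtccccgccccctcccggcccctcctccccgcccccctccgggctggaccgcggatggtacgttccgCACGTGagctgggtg
Cd72, chr4:43454629-43454876, minus strand: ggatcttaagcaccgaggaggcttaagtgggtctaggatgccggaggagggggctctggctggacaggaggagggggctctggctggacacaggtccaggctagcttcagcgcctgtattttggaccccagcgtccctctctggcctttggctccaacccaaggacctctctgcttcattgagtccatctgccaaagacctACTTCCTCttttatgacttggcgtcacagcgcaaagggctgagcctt
Fcrl1, chr3:87376137-87376386, plus strand: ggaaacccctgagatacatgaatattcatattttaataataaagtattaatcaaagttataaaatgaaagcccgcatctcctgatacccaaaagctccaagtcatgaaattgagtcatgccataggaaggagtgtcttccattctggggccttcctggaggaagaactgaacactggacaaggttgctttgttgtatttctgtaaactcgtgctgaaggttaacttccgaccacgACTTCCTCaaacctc
Vpreb3, chr10:75948050-75948299, plus strand: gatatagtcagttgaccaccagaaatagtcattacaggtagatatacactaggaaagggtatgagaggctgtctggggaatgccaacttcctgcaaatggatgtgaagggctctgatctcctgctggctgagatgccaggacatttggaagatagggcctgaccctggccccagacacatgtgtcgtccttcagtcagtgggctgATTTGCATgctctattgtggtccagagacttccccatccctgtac
The first stretch ends 139 bases before the RefSeq start, where an exon of the count table begins, and the second ends 3 bases before it for the same reason.

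Each library held between 15714286 and 24332044 reads in genes. Foxp3 was between 179 and 327 CPM (counts per 1000000 reads of the TMM-scaled library size) in all 15 libraries. Reads of the 34 genes together made up 0.0839% to 0.207% of the reads in spleen, 0.0375% to 0.0453% in thymus and 0.19% to 0.374% in peritoneal libraries. On the CPM scale their sum was 840 to 2010 in spleen (median 1348, n = 6), 370 to 452 in thymus (median 405, n = 5) and 1899 to 3740 in the peritoneal cavity (median 2926, n = 4). The peritoneal and spleen ranges overlapped by a narrow margin, and every thymus library lay below every library of the other tissues. In thymus, 5 to 15 of the 34 genes had no read in a library, against 0 or 1 in the other libraries.

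**Figure D1:**
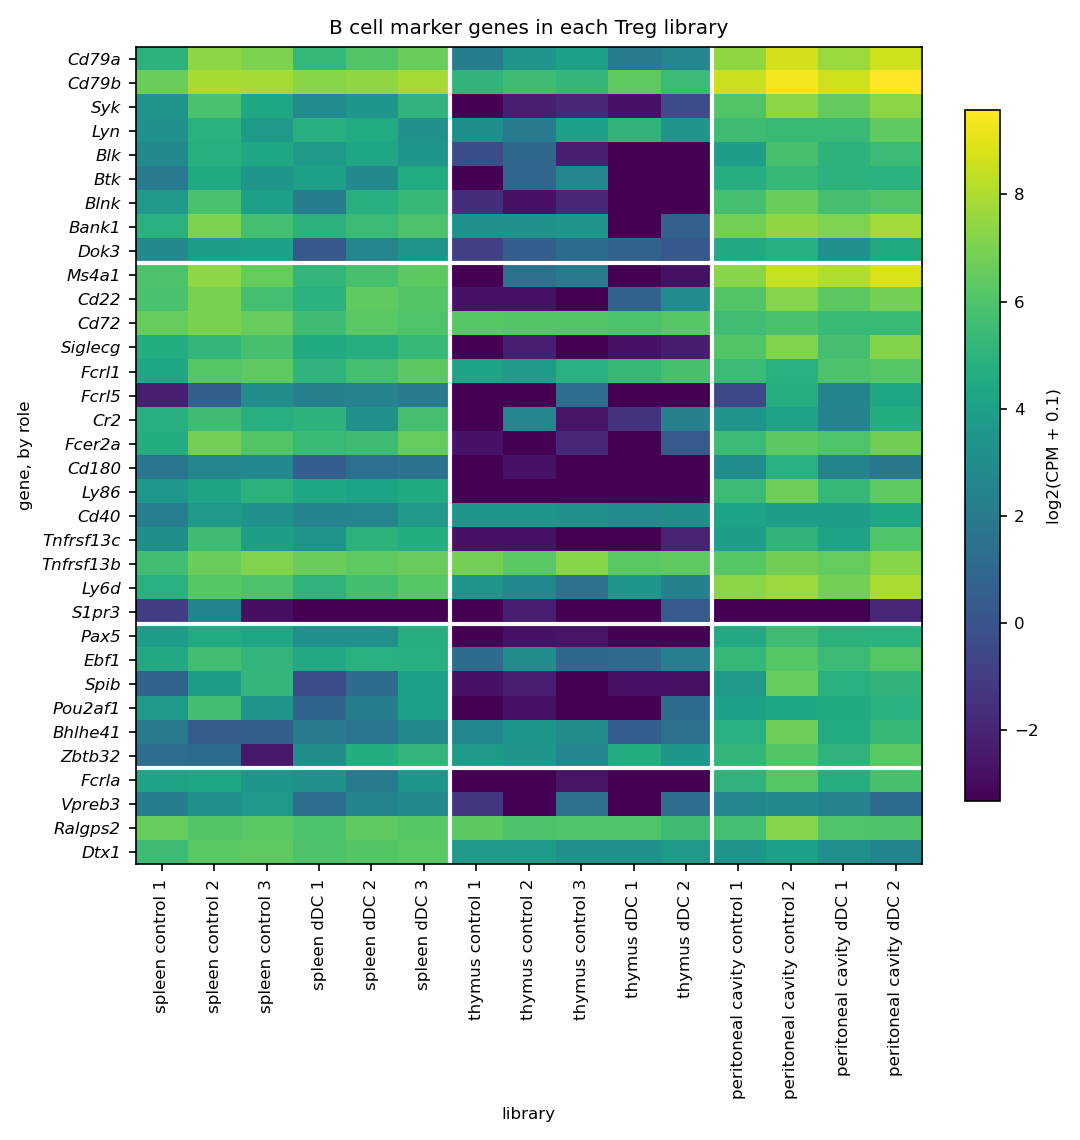
Heat map of log2(CPM + 0.1) for the 34 B cell marker genes (rows, grouped by role with white lines between groups) in each of the 15 libraries (columns, white lines between tissues). Most rows are darkest in the 5 thymus libraries and brightest in the 4 peritoneal libraries. Cd72, Tnfrsf13b and Ralgps2 are among the rows with reads in every column.

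Tissues were compared with edgeR's quasi-likelihood test, averaging the control and dDC differences, and a gene was called at a Benjamini-Hochberg adjusted p under 0.05 over all tested genes. The 3 tissue comparisons share libraries, so their values are given side by side and are not independent.

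Peritoneal libraries carried more RNA of 7 of the 34 genes than spleen libraries and less of 2. Bhlhe41, a basic helix-loop-helix repressor known for its part in B-1 cells, rose 14.6-fold, and Zbtb32, a zinc finger repressor, rose 8.93-fold in the average of both genotypes. Cd79b, Ly6d, Ly86, Siglecg and Fcrla rose 2.97- to 4.02-fold, and Dtx1 and Cd72 fell. The background was 1.23% of tested genes called higher and 1.66% called lower. Over the 34 genes the median log2 difference was 1.21, against -0.03 over all tested genes, and 28 of 34 were positive. The ranges of the 2 tissues did not overlap for 11 of the 34 genes, against 5.06% of all tested genes. With other tests, DESeq2 called 10 of the 34 higher and 2 lower, and limma-voom 11 and 2. Both included the 9 genes called by edgeR and added Cd79a and Syk. DESeq2 also called Lyn higher, and limma-voom Bank1 and Ms4a1. The share of all genes that these tools called in this comparison is not given here.

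Among the receptor chains, kinases and adaptors, all 9 had positive differences and 1, Cd79b, was called. Cd79b (ENSMUSG00000040592, chr11:106311341-106314762), a signalling chain of the B cell receptor, had 97.1 CPM in the lowest, 199 in the median and 233 in the highest spleen library. In the peritoneal cavity it had 372 and 686 CPM in controls and 396 and 762 in dDC. All 4 peritoneal libraries were above all 6 spleen libraries, with a log2 difference of 1.57 (SE 0.29, edgeR adjusted p = 0.0132). Its partner Cd79a (ENSMUSG00000003379, chr7:24897381-24902197) had 31 to 169 CPM in spleen (median 84.2). It had 171 and 422 CPM in peritoneal controls and 196 and 397 in dDC. These ranges were separate too, but the difference of 1.76 (SE 0.49) was not called by edgeR (edgeR adjusted p = 0.0909). Syk, the kinase that docks on both chains, had 7.32 to 59.3 CPM in spleen and 66.5 to 165 in the peritoneal cavity, a difference of 2.39 (SE 0.6, edgeR adjusted p = 0.061). The other 6, the kinases Lyn, Blk and Btk and the adaptors Bank1, Blnk and Dok3, had log2 differences between 1.18 (Btk) and 1.5 (Lyn), and none was called by edgeR. Per kilobase of exon, the mean level of Cd79b was 387 CPM in peritoneal and 130 CPM in spleen libraries, the highest of the 9 genes.

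Of the 15 surface proteins, Ly6d, Ly86 and Siglecg were called higher and Cd72 lower. Ly6d (ENSMUSG00000034634, chr15:74762056-74763620), a surface marker of early B cell commitment, had 28.7 to 74 CPM in spleen (median 56.6). It had 162 and 200 CPM in peritoneal controls and 115 and 243 in dDC, with no overlap and a log2 difference of 1.74 (SE 0.4, edgeR adjusted p = 0.0375). Ly86 (ENSMUSG00000021423, chr13:37345345-37419036), the partner of the Toll-like receptor homolog Cd180, had 11.6 to 30.8 CPM in spleen (median 19.6). In the peritoneal cavity it had 43.9 and 104.5 CPM in controls and 38.2 and 82.3 in dDC, again without overlap (1.71, SE 0.37, edgeR adjusted p = 0.0478). Siglecg, an inhibitory lectin that binds sialic acid and is prominent on B-1 cells, had 23 to 56.3 CPM in spleen and 54.7 to 148 in the peritoneal cavity, where the ranges just overlapped (1.57, SE 0.37, edgeR adjusted p = 0.0442). Ms4a1, which encodes CD20, had 36 to 167 CPM in spleen and 154 to 438 in the peritoneal cavity, and its difference of 1.94 (SE 0.56) was not called by edgeR (edgeR adjusted p = 0.105). Cd72 (ENSMUSG00000028459, chr4:43446462-43454628), an inhibitory C-type lectin, went the other way. It had 46.9 to 125 CPM in spleen (median 84.3), 49.8 and 57.7 in peritoneal controls and 41.7 and 41.2 in peritoneal dDC, a difference of -0.78 (SE 0.15, edgeR adjusted p = 0.0188). Its ranges overlapped, and Tesk1, which overlaps its exons on the opposite strand, had 365 reads in all libraries against 19837 of Cd72. Of the other surface genes, Fcrl5 had the highest log2 difference, at 1.76, and Fcrl1 was at -0.17; Cd180, Cd40, Cd22 and the BAFF receptor Tnfrsf13c lay between, and none was called.

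All 6 transcription regulators had positive differences and 2 were called. Bhlhe41 (ENSMUSG00000030256, chr6:145858243-145865558) had 1.3 to 6.85 CPM in spleen (median 3.53). It had 29.4 and 106 CPM in peritoneal controls and 23.8 and 40.1 in dDC. The lowest peritoneal library was above the highest spleen library, and the log2 difference was 3.86 (SE 0.47, edgeR adjusted p = 0.00105). Zbtb32 (ENSMUSG00000006310, chr7:30589681-30598909) had 0.0842 to 36.3 CPM in spleen, with all 3 controls at 2.45 or less and all 3 dDC libraries at 8.28 or more. In the peritoneal cavity it had 37.7 and 68.9 CPM in controls and 33.5 and 77.4 in dDC, and the ranges overlapped (3.16, SE 0.66, edgeR adjusted p = 0.0241). The difference was 5.07 in control libraries alone (edgeR adjusted p = 0.0427) and 1.25 in dDC libraries alone (edgeR adjusted p = 0.812). For Bhlhe41 these values were 4.96 (edgeR adjusted p = 0.00717) and 2.76 (edgeR adjusted p = 0.0837). Pax5 and Ebf1 had differences of 0.95 (SE 0.41, edgeR adjusted p = 0.32) and 0.91 (SE 0.41, edgeR adjusted p = 0.343). The Ets factor Spib and the octamer co-activator Pou2af1 had differences of 1.96 and 0.72 and were not called.

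Among the other 4 intracellular proteins, Fcrla was called higher and Dtx1 lower. Fcrla (ENSMUSG00000038421, chr1:170917576-170927583), an Fc receptor-like protein retained inside B cells, had 3.94 to 19.9 CPM in spleen and 25.9 to 72 in the peritoneal cavity (2.01, SE 0.43, edgeR adjusted p = 0.0319). Dtx1 (ENSMUSG00000029603, chr5:120680202-120711927) encodes Deltex 1, a ubiquitin ligase of the Notch pathway that marks marginal zone B cells and is also made in T cells. It had 46.5 to 81.7 CPM in spleen (median 73.3), 9.98 and 16.1 in peritoneal controls and 8.86 and 5.5 in peritoneal dDC. Every spleen library was above every peritoneal library, and the difference was -2.83 (SE 0.25, edgeR adjusted p = 0.000108). Ralgps2 and Vpreb3, a chaperone-like relative of the surrogate light chain, had differences of 0.07 and -0.42. Bhlhe41 and Dtx1 were called in all 15 fits that left out a library. The other 7 were not: without peritoneal control 2 or peritoneal dDC 2 only Bhlhe41 was called higher, and without spleen control 1 there were 3 higher calls, or without spleen dDC 1 or spleen dDC 2 there were 2. Cd72 lost its call without each of the 4 peritoneal libraries in turn.

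**Figure D2:**
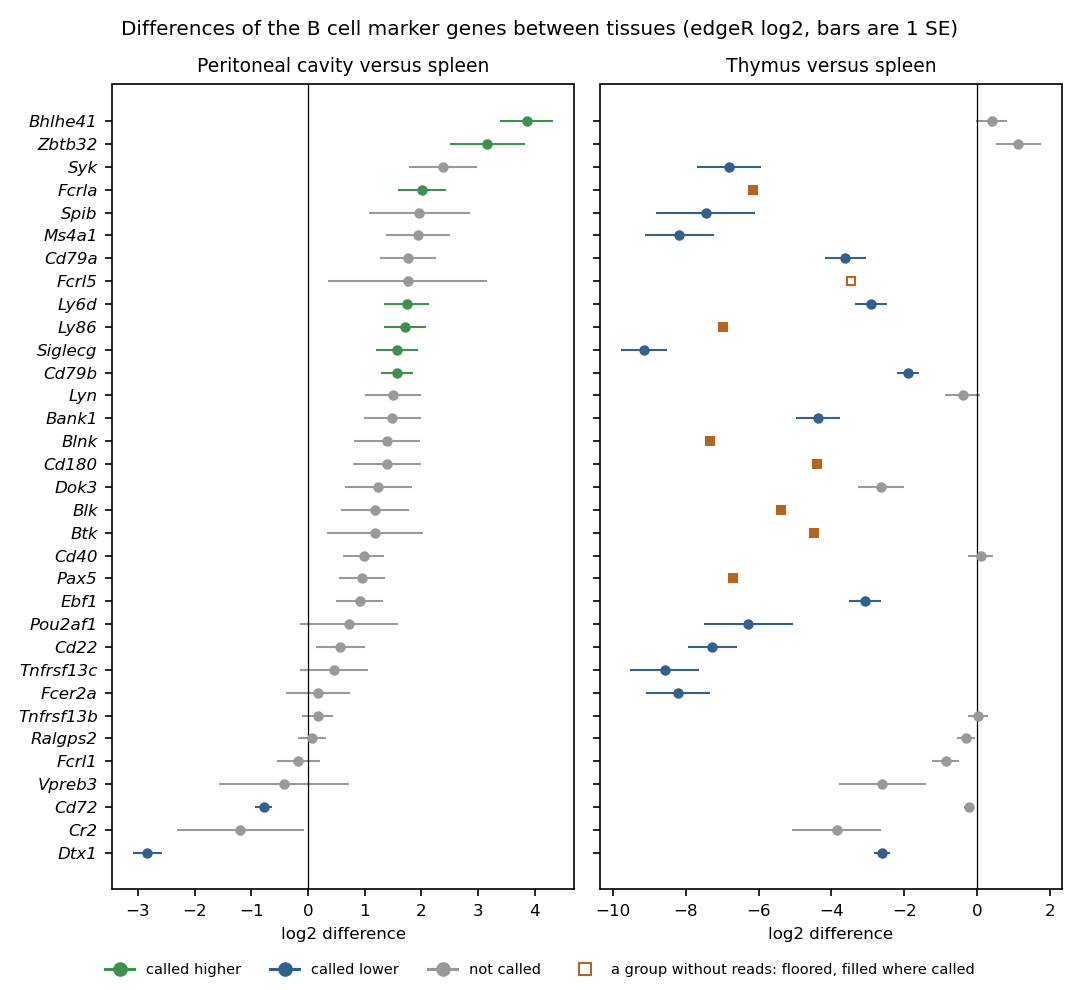
Log2 difference of 33 of the 34 genes between peritoneal cavity and spleen (left) and thymus and spleen (right), with bars of 1 SE and colours for the edgeR call. Squares mark genes with a group without reads, drawn without an error at the difference with group means under 3 reads per library set to 3; S1pr3, near 0 in most libraries, is not drawn. Bhlhe41 and Dtx1 stand at 3.86 and -2.83 on the left, and most genes lie far below 0 on the right.

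Genes of B cell subsets were also set against general B cell genes, as reads per 100 reads of Cd79a, Cd79b and Ms4a1 together; these ratios are descriptions without a test. Fcer2a, the low-affinity IgE receptor CD23 of follicular B cells, gave 13.2 to 22.5 reads per 100 in spleen and 5.38 to 7.61 in the peritoneal cavity. Cr2, the complement receptor CD21 of follicular and marginal zone cells, gave 3.26 to 14.8 and 0.599 to 1.57. Both were lower against these genes in every peritoneal library, although their CPM ranges overlapped: the differences in level were 0.18 (SE 0.56, edgeR adjusted p = 0.96) for Fcer2a and -1.19 (SE 1.12, edgeR adjusted p = 0.721) for Cr2. Dtx1 gave 13.4 to 26.7 in spleen and 0.344 to 1.43 in the peritoneal cavity. Bhlhe41 gave 0.228 to 2.01 in spleen and 2.51 to 7.2 in the peritoneal cavity, and with Cd79a alone below the line the ranges overlapped, at 0.767 to 12.3 and 10.1 to 25.2 per 100. Tnfrsf13b, which encodes the BAFF and APRIL receptor TACI, gave 17.2 to 43.4 in spleen and 7.51 to 10.7 in the peritoneal cavity, but it also had 77.3 to 154 CPM in thymus libraries, where Ms4a1 was at 4.02 CPM or less. Dtx1 had 9.37 to 13.2 CPM in the same thymus libraries. Per 100 reads of the general genes, Bhlhe41 gave 1.6 to 17.9 and Zbtb32 10 to 33.5 in thymus. Whether these ratios hold reads of cells other than B cells was not tested. Between spleen and peritoneal cavity, Zbtb32 and the Fc receptor-like protein Fcrl5 had overlapping ratios. For Zbtb32 the overlap came from the spleen dDC libraries, at 3.56 to 8.97. The spleen controls gave 0.01855 to 1.29, below the 3.94 to 5.41 of the peritoneal libraries. Separate, lower peritoneal ratios were not found for subset genes alone. Of the 23 members outside this subset group and the 3 genes below the line, 17 had overlapping ratios and 6 were lower in every peritoneal library: Cd22, Cd72, Fcrl1, Ebf1, Vpreb3 and Ralgps2. Their peritoneal median was 0.205 (Cd72) to 0.564 (Ebf1) times the spleen median. For the subset genes with lower ratios it was 0.391 (Fcer2a), 0.379 (Tnfrsf13b), 0.122 (Cr2) and 0.0498 (Dtx1). Among those that overlapped, Bank1 gave a median of 15.1 in spleen and 14.8 in the peritoneal cavity, and Ly86 6.08 and 5.73. The share of all genes with separate ratios was not computed. Cd79a, Cd79b and Ms4a1 had log2 differences of 1.76, 1.57 and 1.94 themselves, so a gene of unchanged level has a lower peritoneal ratio. Differences in level were 0.07 for Ralgps2 and -0.17 for Fcrl1. With Cd79a alone below the line, Cd22 overlapped, at 40.5 to 186 and 29.2 to 41.1 per 100, and Syk became separate and higher. S1pr3, a marginal zone receptor for sphingosine 1-phosphate, had at most 94 reads in a spleen library and at most 3 in a peritoneal library.

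**Figure D3:**
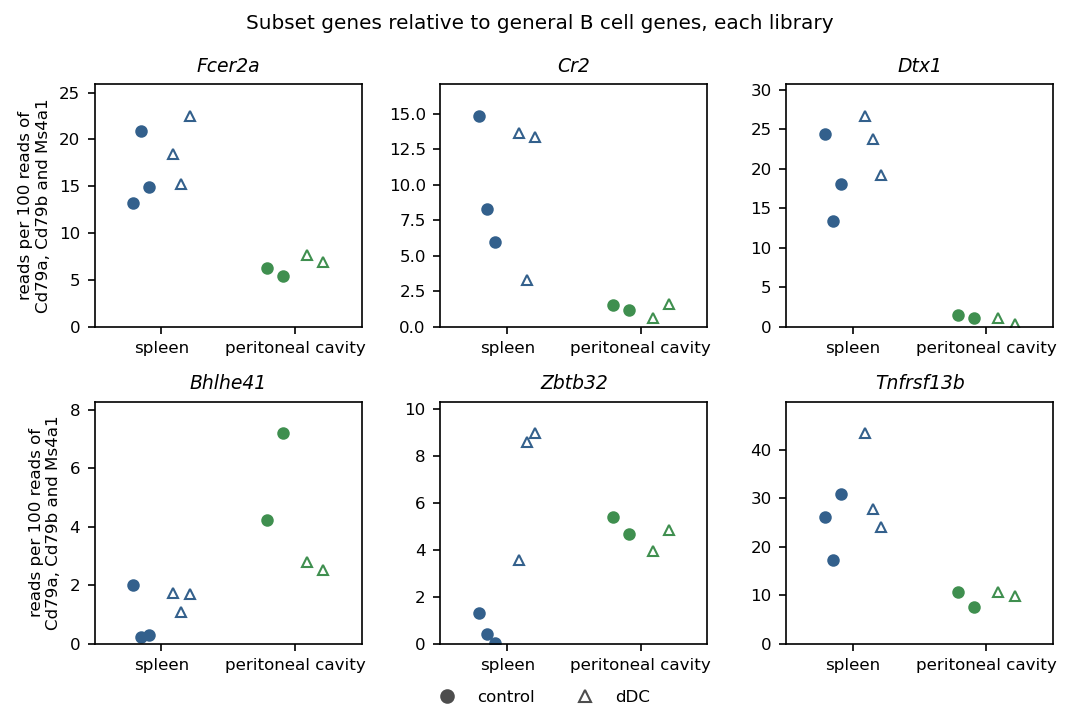
Reads of 6 subset genes per 100 reads of Cd79a, Cd79b and Ms4a1 in each spleen and peritoneal library (filled circles control, open triangles dDC; each axis starts at 0). Fcer2a, Cr2, Dtx1 and Tnfrsf13b are higher in all spleen libraries, Bhlhe41 in all peritoneal libraries, and Zbtb32 overlaps.

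In thymus libraries, 21 of the 34 genes were lower than in spleen and none was higher, with 0.901% of tested genes called lower and 0.418% called higher. The median log2 difference was -4.12, or -3.74 with group means under 3 reads per library set to 3, against -0.03 over all tested genes. Ranges did not overlap for 20 of the 34, against 2.99% of tested genes. Against thymus, peritoneal libraries had 22 genes higher and none lower, with 3.03% and 2.58% of tested genes called. These 22 were the 21 without Dtx1 and, in addition, Bhlhe41 (3.46, SE 0.51, edgeR adjusted p = 0.0019) and Dok3 (3.87, SE 0.69, edgeR adjusted p = 0.00658). In either direction, 25 genes had an unadjusted p under 0.05 in edgeR against spleen (12.6% of tested genes) and 28 against the peritoneal cavity (18.2%). DESeq2 called none higher and 24 lower in thymus than in spleen (5.94% of all genes it tested, in either direction), and limma-voom none and 15 (1.64%). For peritoneal cavity against thymus, DESeq2 called 25 higher and 1, Cd72, lower (12.1%), and limma-voom 24 and none (5.88%). Leaving out each library in turn kept all 22 calls against the peritoneal cavity and 16 of the 21 against spleen: Btk lost its call in 12 of the 15 fits and Pou2af1 in 5, Spib lost it without thymus dDC 1 or thymus dDC 2, and Cd79a and Ebf1 without thymus dDC 1. For peritoneal cavity against thymus the median was 5.62, or 5.3 with the floor, and without thymus dDC 2 the medians were -6.04 for thymus against spleen and 6.71 for peritoneal cavity against thymus. In the latter comparison the ranges of 26 genes were separate, against 8.38% of tested genes.

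Several genes nearly vanished from the thymus libraries. Ly86 had no read in any of the 5, which allows up to 3 reads each, and was at least 126-fold higher in spleen and at least 414-fold higher in the peritoneal cavity. Pax5 had 2 reads in all thymus libraries together against 2032 in spleen, a ratio of 795 (95% exact interval 220 to 6570). Fcrla had 1 read against 1406 in spleen, a ratio of 1100.0 (197 to 43490). Cd180 had 1 read against 447, a ratio of 350 (62.5 to 13850), and its exons overlap Mast4 on the opposite strand, which had 9612 reads in all. No molecular identifiers are named, so intervals and floors cover counting error only. Siglecg had at most 2 reads, Spib 2, Tnfrsf13c 3 and Blnk 4 in a thymus library, and all were called lower than in spleen, with edgeR adjusted p between 9.3e-05 and 0.0201.

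The other called genes differed in how many reads were left. Cd79a had 4.21, 10.4 and 15.9 CPM in thymus controls and 3.94 and 5.94 in dDC, below every spleen library (-3.62, SE 0.56, edgeR adjusted p = 0.00653). Cd79b had 35, 47.3 and 36.7 CPM in thymus controls and 81.6 and 44 in dDC, and fell less (-1.90, SE 0.3, edgeR adjusted p = 0.00786). Per kilobase of exon, the mean level of Cd79b was 2.1 times that of Cd79a in spleen and 6.16 times in thymus. Dtx1 was low in thymus too, at 12.5, 13.2 and 9.94 CPM in controls and 9.37 and 12.1 in dDC (-2.61, SE 0.23, edgeR adjusted p = 0.00023). Ly6d (-2.91, SE 0.43, edgeR adjusted p = 0.00509) and Ebf1 (-3.08, SE 0.45, edgeR adjusted p = 0.00508) were lower as well. Ms4a1, Cd22, Fcer2a, Syk, Blk, Btk, Bank1 and Pou2af1 were the other 8 called lower, with means between 0.215 and 6.24 CPM in thymus. All of them except Bank1 had at most 3 reads in most thymus libraries.

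A further 8 genes were not called in thymus against spleen and kept clear levels there. Cd72 had 74.6, 70 and 70.2 CPM in thymus controls and 61.2 and 74.2 in dDC, within its spleen range (-0.22, SE 0.14, edgeR adjusted p = 0.611). Tnfrsf13b had 77.3 to 154 CPM in thymus and 49.8 to 139 in spleen (0.02, SE 0.27, edgeR adjusted p = 1). Ralgps2, an exchange factor for Ral GTPases, had 46.2 to 81.3 and 61.6 to 92.3 CPM. Cd40, the receptor for T cell help, had 7.28 to 11.2 and 4.51 to 12.8 CPM, and Fcrl1 14.1 to 55.9 and 19.2 to 82.4. The difference for Fcrl1 was -0.86 (SE 0.37, edgeR adjusted p = 0.36). These 5 genes had their reads in thymus libraries in which Ms4a1 was between 0 and 4.02 CPM. Lyn, Zbtb32 and Bhlhe41 had 3.93 to 34, 5.69 to 25.6 and 1.37 to 10.8 CPM in thymus and were not called against spleen either. The signs for Tnfrsf13b and Cd40 were not stable to leaving out libraries, and those for Cd72, Lyn, Zbtb32 and Bhlhe41 differed in the dDC libraries alone. The remaining 5 of the 13 genes without a call were low in thymus: Cr2 (-3.86, SE 1.22, edgeR adjusted p = 0.187), Dok3 (-2.63, SE 0.63, edgeR adjusted p = 0.0721), Vpreb3 (-2.60, SE 1.19, edgeR adjusted p = 0.399), and Fcrl5 and S1pr3, which had no read in 4 and 3 of the 5 thymus libraries.

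**Figure D4:**
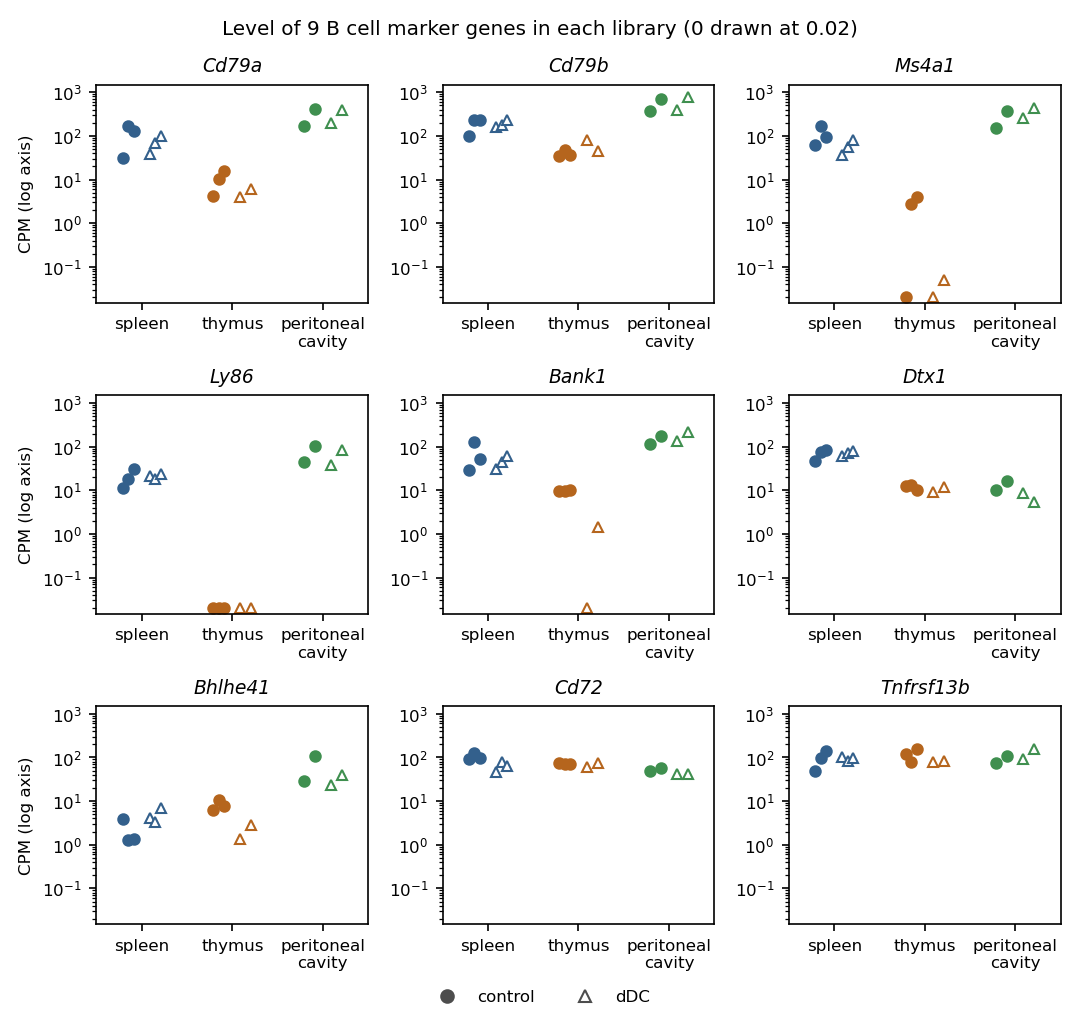
CPM on a log axis of 9 genes in each library by tissue (filled circles control, open triangles dDC; values of 0 are drawn at 0.02). Cd79a, Cd79b, Ms4a1, Ly86 and Bank1 are lowest in thymus and highest in the peritoneal cavity. Dtx1 is high in spleen, and Bhlhe41 is high in the peritoneal cavity. Cd72 is lowest in the peritoneal cavity, where its range overlaps that of spleen, and the ranges of Tnfrsf13b overlap between all tissues.

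Reads of the low genes were unevenly spread over the thymus libraries. Cr2 had 110 reads in control 2 and 97 in dDC 2 but 0, 1 and 5 in the others. Btk had 32 and 100 reads in controls 2 and 3 and none elsewhere, and Ms4a1 had 50 and 70 in those 2 libraries and at most 1 elsewhere. In dDC 2, Cd22 had 155 reads, Pou2af1 46 and Vpreb3 48, next to 1 read of Ms4a1. These genes thus had their reads in 1 or 2 thymus libraries and few or none in the rest, and the libraries differed in which genes they held.

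Of 29 further B cell genes, 6 were higher and 2 lower in peritoneal than in spleen libraries, with a median log2 difference of 1.13. Of all tested genes, 1.23% were called higher and 1.66% lower. The 4 with the most reads differed among themselves. Cd74, the invariant chain of MHC class II, was 1032 to 2945 CPM in spleen and 2795 to 11750 in the peritoneal cavity (1.70, SE 0.38, edgeR adjusted p = 0.0361). Ighm, the constant region of IgM, was 2253 to 3088 and 2278 to 3520 CPM (0.02, SE 0.13, edgeR adjusted p = 0.994), and it was also at 1055 to 1579 CPM in thymus, where Igkc was at 4.66 to 16.2. Igkc, the kappa light chain, was 335 to 685 CPM in spleen and 629 to 1378 in the peritoneal cavity (1.06, SE 0.32, edgeR adjusted p = 0.128). The tetraspanin Cd37 was 568 to 699 and 601 to 887 CPM. The 2 lower genes, named after their values were seen, were Cd83 (-2.61, SE 0.34, edgeR adjusted p = 0.00154) and Cd86 (-1.64, SE 0.32, edgeR adjusted p = 0.0171), both also well above 0 in thymus. In thymus against spleen, 12 of the 29 were lower and none higher (median -3.02, or -2.84 with the floor), against 0.901% and 0.418% of tested genes. Of 8 plasma cell genes, 7 were tested and none was called between peritoneal cavity and spleen.

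Markers of other cells moved as well, and their part in these results was not tested. The 17 macrophage and myeloid genes summed to 140 to 463 CPM in spleen, 6.26 to 35.8 in thymus and 75.9, 193, 334 and 1966 in peritoneal libraries. The highest value was that of peritoneal control 2, in which the sum of the 34 B cell genes was 3721 CPM; in peritoneal dDC 2 that sum was 3740 CPM with 334 CPM of macrophage genes. None of the 15 tested macrophage genes was called between peritoneal cavity and spleen by edgeR, with 3 at an unadjusted p under 0.05, as were 14.4% of tested genes. Of the 15, 9 had a positive difference, with a median log2 difference of 0.31. In thymus against spleen, 3 of the 15 were called lower (Tyrobp, Adgre1 and Mpeg1) and none higher, with a median log2 difference of -5.99, or -4.21 with the floor. Of all tested genes, 0.901% were called lower and 0.418% higher there. In peritoneal cavity against thymus, 5 were called higher (the same 3, Fcer1g and Lyz2) and none lower, with a median of 5.58, or 3.81 with the floor. Here 3.03% of tested genes were called higher and 2.58% lower. In all 3 tissue comparisons the median of the macrophage genes thus had the same sign as that of the B cell genes. Of the defining markers named here, Fcgr1 was at 0 in all 4 peritoneal libraries, Gata6 was at or below 1.33 CPM there, and Adgre1 had a mean of 14.9 CPM there and 24.1 in spleen. They do not stand for the whole macrophage list, whose sum was highest in a peritoneal library. The 7 plasmacytoid dendritic genes summed to 228 to 266 CPM in spleen, 468 to 555 in thymus and 146 to 192 in the peritoneal cavity, with the defining gene Siglech at a median of 0 in every tissue. Irf7 and Pacsin1 were called lower in the peritoneal cavity than in spleen, and Irf7 was called higher in thymus. The 13 T cell and Treg genes summed to 11070 to 11970 CPM in spleen, 10460 to 12240 in thymus and 7540 to 10260 in the peritoneal cavity, and 5 of 13 were called lower in the peritoneal cavity than in spleen: Zap70, Lck, Lat, Cd3g and Cd3e, named after their values were seen. The share of all tested genes called lower there was 1.66%.

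**Figure D5:**
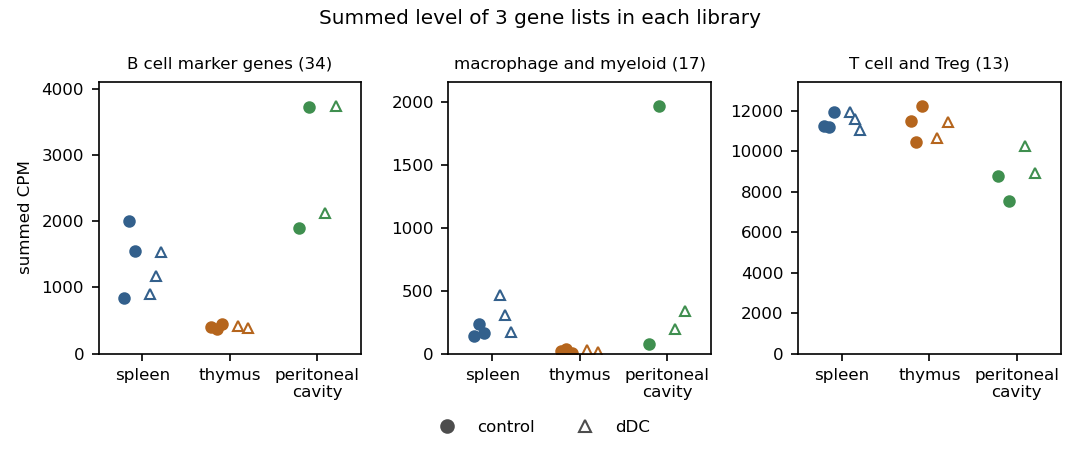
Summed CPM of the 34 B cell marker genes, 17 macrophage and myeloid genes and 13 T cell and Treg genes in each library by tissue (filled circles control, open triangles dDC; each axis starts at 0). The B cell sum is 370 to 452 in thymus and 1899 to 3740 in the peritoneal cavity, and 1 peritoneal control library has a macrophage sum of 1966.

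The study's own contrast, Tregs of dDC mice against littermate controls, gave no call for the 34 genes in any tissue with edgeR. Among all tested genes, edgeR called 0% in spleen, 0% in thymus, 0.00543% in the peritoneal cavity and 0.076% in the average over tissues. At an unadjusted p under 0.05 in edgeR there were 3 of the 34 genes in spleen (4.27% of tested genes), 8 in thymus (6.57%), 1 in the peritoneal cavity (6.36%) and 9 in the average (9.31%). DESeq2 called 1 higher in spleen (0.215% of all genes it tested, in either direction), 1 higher and 3 lower in thymus (0.955%), none in the peritoneal cavity (1.32%) and 1 higher and 1 lower in the average (2.5%). limma-voom called none of the 34 in these 4 comparisons, and 0%, 0%, 0.0271% and 0.114% of tested genes. The median log2 differences of the 34 genes were -0.33 in spleen, -0.08 in thymus (-1.16 without thymus dDC 2) and -0.01 in the peritoneal cavity. Groups did not overlap for 4 of 34 genes in spleen, 7 in thymus and 6 in the peritoneal cavity, against 10.1%, 19.4% and 34.1% of all tested genes.

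In spleen, the 3 genes with the smallest p were Zbtb32, Cd72 and S1pr3. Zbtb32 had 2.45, 2.26 and 0.0842 CPM in controls and 8.28, 25.5 and 36.3 in dDC, so that every dDC library was above every control library (3.88, SE 0.92, edgeR adjusted p = 1). DESeq2 called it, with a difference of 3.86 and an adjusted p of 0.0011 (DESeq2). Cd72 had 92, 125 and 95.8 CPM in controls and 46.9, 76.6 and 65.4 in dDC, all below the controls (-0.73, SE 0.19, edgeR adjusted p = 1). S1pr3 had 7, 94 and 1 reads in controls and 0 in each dDC library (edgeR adjusted p = 1). In the peritoneal cavity they were Dtx1 (-0.86, SE 0.35, edgeR adjusted p = 0.749), Cd180 (-2.05, SE 0.98, edgeR adjusted p = 0.788) and Ralgps2 (-0.67, SE 0.39, edgeR adjusted p = 0.807), whose difference was 0.3 without peritoneal control 2.

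In thymus the 3 were Cd22, Bank1 and Blk. Cd22, an inhibitory receptor for sialic acid, had 1, 1 and 0 reads in controls and 30 and 155 in dDC. The ratio of the pooled reads, scaled to library size, was 129 (95% exact interval 35.3 to 1076). That interval covers counting error only and leaves out the spread between libraries. For Cd22 the edgeR adjusted p was 0.178. Without a filter on low counts this adjusted p was 0.0175, and with DESeq2 it was 6.03e-06. Bank1, a scaffold of B cell receptor signalling, had 174, 180 and 181 reads in controls and 0 and 30 in dDC (-3.70, SE 0.93, edgeR adjusted p = 0.628). It passed the threshold with DESeq2 (adjusted p = 0.0141) and in edgeR without thymus dDC 2 (adjusted p = 0.048), which leaves 1 dDC library, assumed to vary like the other groups. Blk, a Src family kinase of B cells, had 14, 35 and 2 reads in controls and none in dDC (edgeR adjusted p = 0.698; DESeq2 adjusted p = 0.0148). Btk, with reads in only 2 of the 3 controls, was the other gene that DESeq2 called (adjusted p = 0.00371).

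Averaged over tissues, the smallest p belonged to Cd22 (2.08, SE 0.49, edgeR adjusted p = 0.199), Cd72 (-0.39, SE 0.12, edgeR adjusted p = 0.347) and Blk (-2.45, SE 0.77, edgeR adjusted p = 0.356). Cd22 was not higher in every tissue: it had 57.9, 125 and 53.4 CPM in spleen controls and 29.7, 86.3 and 68.8 in spleen dDC, with overlapping ranges. Whether the dDC difference itself varied between tissues was tested with the interaction. No gene of the 34 was called by edgeR for peritoneal cavity minus spleen (3 at an unadjusted p under 0.05, as were 4.89% of tested genes), thymus minus spleen (10, 5.06%) or peritoneal cavity minus thymus (6, 5.72%), with 0% of tested genes called in each. limma-voom called none of them and 0% of tested genes. DESeq2 called Cd22 and Btk in both interactions with thymus, with 0.225% of all genes it tested called for thymus minus spleen and 0.733% for peritoneal cavity minus thymus, and none for peritoneal cavity minus spleen (0.293%).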

How the data were processed

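Bulk RNA libraries were made from sorted Foxp3+ cells, with cDNA from a poly-dT primer by template switching, per the labels' protocols; this chemistry does not record strand, so a read in exons shared with an antisense gene could belong to either. The authors deposited unnormalized read counts per gene, as whole numbers, in 1 table with exon coordinates and exon length in mm10. Tools were bcl2fastq 2.19.1, GSNAP and featureCounts 1.6.0, per the submitters' processing notes; the strand setting and the treatment of multiply matching reads were not given in the sources used here. Each column was matched to its library by label. The table's 92 spike-in features, with at most 6 reads in a library, were left out. Symbols from a GENCODE table matched 45143 of 45706 gene identifiers (98.8%).

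Genes were kept by edgeR's filter on low counts, which left 18423 genes with 99.93% of the counts. CPM were computed on these genes' totals scaled by TMM (factors 0.96 to 1.05). All tests used edgeR 4.0.16 in R 4.3.3 (robust quasi-likelihood, 1 mean for each of the 6 groups, 9 residual degrees of freedom, two-sided, Benjamini-Hochberg over all tested genes, threshold 0.05). Tissue comparisons average the control and dDC differences. Each SE is the absolute log2 difference divided by the square root of the quasi-likelihood F statistic, so it was derived from the test. Alternatives were RLE size factors, DESeq2 1.42.0, limma 3.58.1 (voom), no filter, each genotype alone, the 2 groups of a tissue alone, leaving out each library, and, added after the data were seen, a floor of 3 reads per library. The fits were run on simulated data with a common dispersion and changes only in genes with many reads. This checked the code and not how the tests treat genes with few reads. Labels carry no replicate number shared between groups.

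The 34 genes, the other gene lists and the comparisons were chosen with earlier results of these data known. Named in detail were the genes with the highest level per kilobase in each role, all subset genes, all called genes and, where a dDC comparison called none, the 3 with the smallest p; of other lists, up to 4 genes with the most reads.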

Additional observations from a re-analysis of the deposited data

How the results depend on the processing

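No paired analysis was possible because the labels give no replicate numbers that groups share; library numbers alternate between control and dDC in most cases, no label says that neighbours belong together, and no block by neighbouring number was fitted. RLE size factors and the floor left all counts of calls and medians of the 34 genes within 1.5 times or 1 SD. Peritoneal cavity against spleen was the least stable: the 7 higher calls were 2 in controls alone, 0 in dDC alone and 11 with limma-voom, and 1 to 8 with a library left out; the 2 lower calls were 1 in controls alone, 1 in dDC alone and 1 to 2 with a library left out. Its median stayed positive in every alternative. The 21 lower calls in thymus against spleen were 11 in dDC alone, and their median was -5.31 with limma-voom and -6.04 to -3.69 with a library left out. Peritoneal cavity against thymus had 1 lower call with DESeq2 and 0 to 1 with a library left out, and its median was 4.13 in controls alone, 4.5 in dDC alone and 5.12 to 6.71 with a library left out. For dDC against control, where edgeR called none, DESeq2 called 1 higher in spleen, 1 higher and 3 lower in thymus, 1 higher and 1 lower in the average, and 1 higher and 1 lower in each interaction with thymus; without a filter there was 1 higher call in thymus, and 0 to 1 lower calls with a library left out. The median was -1.16 to -0.03 for dDC in thymus and -0.47 to 1.02 for the interaction of peritoneal cavity and thymus with a library left out. The sign of thymus against spleen turned in the dDC libraries alone for Cd72 (0.1), Tnfrsf13b (-0.23), Cd40 (-0.01), Lyn (0.12), Zbtb32 (-0.36) and Bhlhe41 (-1.15). It ran from -0.13 to 0.21 for Tnfrsf13b and from -0.06 to 0.35 for Cd40 with a library left out, and dDC against control in the peritoneal cavity from -1.25 to 0.3 for Ralgps2. The causes were not tested. In thymus, a gene without a read could have up to 3 reads per library, and ratios of genes with a few reads have wide counting intervals.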
